A study of Homo sapiens with 28 samples.

Results

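The replication-dependent histone genes encode the linker histone H1 and the 4 core histones H2A, H2B, H3 and H4 that package new DNA during S phase. They were taken as the protein-coding genes whose current symbol is H1-1 to H1-5 or begins with H2AC, H2BC, H3C or H4C and ends in a number (older names HIST1, HIST2 and HIST3). The rule found 68 genes among 60483 gene rows of the deposited table: 5 of H1, 17 of H2A, 18 of H2B, 13 of H3 and 15 of H4. Of these, 64 were matched by the current symbol of their Ensembl identifier and 4 (H3C2, H3C3, H2AC18 and H2AC19) by an older name. On GRCh38, 54 lie on chromosome 6 between bases 25726132 and 27893843, 13 on chromosome 1 and 1, H4C16, on chromosome 12.

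RNA counts came from 28 libraries of A549 and H1944, established human lung adenocarcinoma cell lines. All cells carried MGT#1-mVenus, a reporter that expresses the fluorescent protein mVenus, and the series asks how transcription responds to GSK126 and TGF-β1. GSK126 inhibits EZH2, the enzyme that methylates lysine 27 of histone H3. TGF-β1 is a cytokine that drives epithelial-mesenchymal transition and slows the division of many epithelial cells. The 10 groups were, in each line, unsorted untreated (naive) cells, cells kept for 11 days in 5 µM GSK126 and sorted into a gate of high or of low mVenus, and cells kept for 11 days in 5 ng/ml TGF-β1 and sorted in the same way. A549 had 3 naive libraries. Its GSK126 gates had 3 (low) and 2 (high), and its TGF-β1 gates 2 (low) and 3 (high). H1944 had 3 libraries in each group. Letters A to C name the libraries, and the labels do not say whether letters stand for separate cultures, so the p-values measure the spread between these libraries, which may be technical. Naive cells were not sorted, so the sort and the treatment cannot be told apart in comparisons with naive cells.

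Replication-dependent histone messages are short, come from genes with no introns and, alone among the messages of animal cells, end in a conserved stem-loop instead of a poly(A) tail. The stem-loop binding protein SLBP and the U7 small nuclear ribonucleoprotein form that end, NPAT and FLASH (the product of CASP8AP2) drive transcription at histone locus bodies, and the messages are degraded when DNA synthesis stops. Their level in a culture therefore follows the share of cells in S phase. In bulk RNA, fewer cells in S phase and less histone RNA per cell cannot be told apart, and all levels here are relative to the other RNA of the library. A total RNA kit was used, per the labels' protocols, so reads do not depend on a poly(A) tail.

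The stem-loop is shown for 6 members on which results below turn: H2AC8, H2BC9 and H3C8, which were nearly silent in A549, H4C9, which was nearly silent in H1944, and H4C5 and H4C16, which had the smallest falls past the test under TGF-β1 in A549. Capitals mark the 16 bases of the stem and loop, and 5 bases are shown on either side, 5′ to 3′ on the gene's strand, from the GRCh38 reference genome at GENCODE 29 gene models.
H2AC8 (chr6:26217412-26217437, plus strand): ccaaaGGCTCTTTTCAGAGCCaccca
H2BC9 (chr6:26252050-26252075, plus strand): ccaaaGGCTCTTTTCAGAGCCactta
H3C8 (chr6:26270918-26270943, minus strand): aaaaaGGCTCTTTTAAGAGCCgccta
H4C9 (chr6:27139649-27139674, plus strand): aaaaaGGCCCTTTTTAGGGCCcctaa
H4C5 (chr6:26204996-26205021, plus strand): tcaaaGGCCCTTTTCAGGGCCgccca
H4C16 (chr12:14770719-14770744, minus strand): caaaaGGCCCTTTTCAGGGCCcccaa
A search for this element in the transcript models found it in 31 members, and in 47 of 19702 coding genes in all (0.239%). Another 35 members had no match and a longest model of a whole number of codons, as a model of the coding sequence alone would have. The element may lie outside such models. The coding sequence itself was not checked. H4C3 (435 bases) and H2BC1 (516) are longer than H4C4 (312) and H2BC3 (381), so some of the 35 may hold more than the coding sequence. Among the 31, 17 shared the core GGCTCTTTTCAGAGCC and 5 the core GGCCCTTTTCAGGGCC, while the other 4 cores occurred in 1 to 4 members each. H2AC8 and H2BC9 carried the commonest core.

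Promoter sequence is shown for a pair of H2B and a pair of H4 genes of the chromosome 6 cluster, the first of each pair nearly silent in A549 and the second expressed in both lines. These are the last 150 bases before the RefSeq start (GRCh38.p14), on the gene's strand, with capitals for matches, on either strand, to the CCAAT box (letters CCAAT), the TATA box (searched as TATAA), the octamer (searched as ATTTGCAT) and the H4 element (searched as GGTCC). The TATAA matches of H2BC9 and H2BC10 lie further upstream than the bases shown.
H2BC9 (chr6:26251464-26251613, plus strand): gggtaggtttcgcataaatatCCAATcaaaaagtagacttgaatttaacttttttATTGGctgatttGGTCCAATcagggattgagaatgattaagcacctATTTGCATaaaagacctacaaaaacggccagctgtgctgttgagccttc
H2BC10 (chr6:26272781-26272930, plus strand): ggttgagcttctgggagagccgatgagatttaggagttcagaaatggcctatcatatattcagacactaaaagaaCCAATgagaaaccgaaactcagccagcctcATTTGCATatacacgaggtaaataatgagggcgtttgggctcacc
H4C6 (chr6:26240243-26240392, plus strand): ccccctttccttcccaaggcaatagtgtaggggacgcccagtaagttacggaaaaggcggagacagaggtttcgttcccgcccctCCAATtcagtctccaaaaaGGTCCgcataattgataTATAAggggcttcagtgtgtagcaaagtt
H4C2 (chr6:26027284-26027433, minus strand): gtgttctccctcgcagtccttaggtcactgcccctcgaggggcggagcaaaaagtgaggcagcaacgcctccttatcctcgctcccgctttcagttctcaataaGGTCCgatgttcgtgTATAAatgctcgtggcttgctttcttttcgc
Over the 250 bases before the start, 63 members had a promoter in the RefSeq table and 5 had none. CCAAT occurred in all members of H1, H2A, H2B and H3 with a promoter, in 3 of 13 of H4 and in 32.01% of all 35116 promoters. The octamer ATTTGCAT occurred in 14 of 18 H2B and 11 of 16 H2A promoters, beside 1.632% of all promoters, in none of H1 or H4 and in 1 of 11 of H3. That 1 is H3C4, whose window in the RefSeq table is the same stretch as that of H2AC7, so it is not a separate promoter. GGTCC, the letters at the heart of the H4 subtype element, occurred in 12 of 13 H4 promoters and in 40.73% of all. TATAA occurred in 58 of 63 and in 18.93% of all. A match is a description of letters and not of binding.

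Library totals ran from 1660148 to 13280592 counts (median 3204310), and the 68 genes together took 2644 to 89390 counts per library. Of the 68, 9 had a mean level under 1 CPM (counts scaled to the same library total), namely the testis-type genes H2AC1 and H2BC1, H4C7, and the identical or near-identical copies H2AC18, H2AC19, H3C14, H3C15, H4C14 and H4C15, whose reads may not be assigned to 1 place. In 45 members at least 90% of 50-base windows were unique in the transcript reference, and in 10 under 10% were, so levels of single members of that second set are uncertain. A low-count filter left 51 members in A549, 57 in H1944 and 59 in the fit of both lines. Members that passed only because 1 group was high had to differ there, and the counts of tested members below are not counts of all members. mVenus RNA was higher in every high gate library than in every low gate library of the same line and treatment. Epithelial markers of the lines summed to group means of 1577 to 12466 CPM. Leukocyte and endothelial markers summed to group means of at most 16.1 CPM. Their highest single libraries, in the A549 TGF-β1 high gate, stood at 25.7 CPM (leukocyte) and 40.1 CPM (endothelial). Fibroblast markers summed to group means of at most 98.8 CPM, with the highest library at 105 CPM. Their group means were higher under TGF-β1 than in naive cells in both lines (61.8 and 41.6 CPM beside 15.1 in A549, 86.1 and 98.8 beside 1.52 in H1944). Under TGF-β1 in H1944, LUM stood at 30.8 to 59.6 CPM and DCN at 29.5 to 41.6 CPM, while THY1 was under 1 CPM in each of those libraries and at 0 in 3 of them. The part of these markers in the results was not tested.

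The output of the family was uneven. Per kilobase of exon, H3C2, an H3 gene of the chromosome 6 cluster, stood highest at a mean of 818 CPM per kb over the 28 libraries. The linker histone genes H1-2 (737 CPM per kb), H1-4 (526) and H1-5 (501), the H2A genes H2AC20 (679) and H2AC14 (362), the H3 gene H3C3 (431) and the H2B gene H2BC4 (393) followed. The highest H4 gene, H4C3, stood at 311 CPM per kb. H2AC14, H1-5 and this order are named from their values. The order depends on the gene models, since those of some members hold only the coding sequence (H3C2, 411 bases) and those of others more (H2BC4, 834 bases). H1 genes made up 22.5% ± 3.07 (SD, n = 3) of histone counts in naive A549 and 30.8% ± 0.03 (n = 3) in naive H1944, although they are only 5 of the 68.

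Naive A549 held more histone RNA than naive H1944. The 68 genes summed to 9749, 11661 and 13628 CPM in the A549 naive libraries A, B and C, and to 3651, 4520 and 3828 CPM in those of H1944. The lowest A549 library was thus above the highest of H1944. After TGF-β1, A549 held 3293 and 3807 CPM in low gate libraries A and C and 3912, 2997 and 4366 CPM in high gate libraries A, B and C. H1944 held 2038, 1593 and 1920 CPM in the low gate and 1982, 1811 and 2232 CPM in the high gate. In both lines every TGF-β1 library lay below every naive library, by a ratio of means of 3.18 in A549 and 2.07 in H1944. After GSK126, A549 held 7622, 7670 and 7737 CPM in the low gate and 10551 and 8784 CPM in the high gate. H1944 held 3660, 3491 and 3830 CPM in the low gate and 5536, 4370 and 5620 CPM in the high gate. The high GSK126 gate stood above the low one in both lines without overlap. These sums are descriptions of the members and carry no test.

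**Figure D1:**
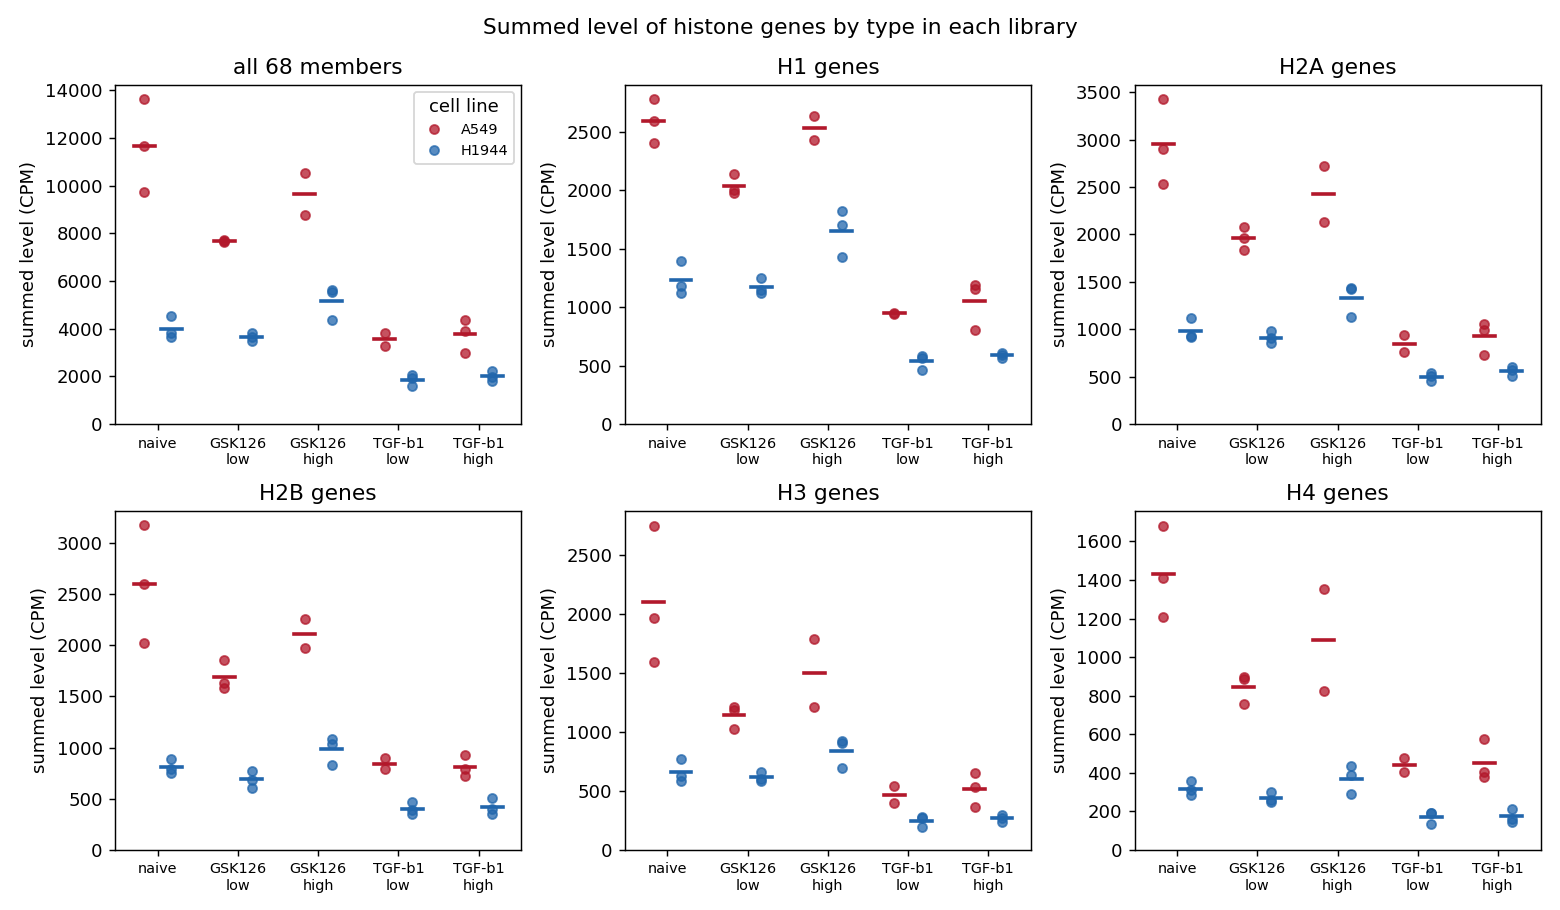
Summed CPM of all 68 genes and of each histone type (y axis, CPM) in the 5 groups of A549 (red) and of H1944 (blue); each dot is a library and each bar the group mean. Both TGF-β1 groups of each line lie below naive cells in every panel, and in the panel of all 68 genes the high GSK126 gate lies above the low one (means of 9668 and 7676 CPM in A549, 5175 and 3660 CPM in H1944).

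TGF-β1 lowered nearly the whole family in both lines. In A549, 49 of 51 tested members fell and 0 rose, where 11.4% of all 19842 genes tested fell and 7.67% rose. The members' median log2 fold change was −1.98, beside 0.05 over all genes tested. In H1944, 50 of 57 fell and 0 rose, where 31.6% of all 13621 genes fell and 32.1% rose, and the members' median was −0.99 beside −0.01. Tests were edgeR quasi-likelihood F tests against naive cells over the mean of both gates, adjusted over all genes tested by the Benjamini-Hochberg method at 0.05. In A549 50 of 51 members had every TGF-β1 library below every naive library, and in H1944 47 of 57 did. That separation was not counted over all genes, so these 2 counts are a description.

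Each histone type took part. In A549 4 of 4 tested H1 genes fell (median −1.56), 12 of 12 of H2A (−1.97), 14 of 14 of H2B (−1.94), 8 of 10 of H3 (−2.18) and 11 of 11 of H4 (−2.03). In H1944 5 of 5 of H1 fell (−1.10), 12 of 14 of H2A (−0.86), 14 of 16 of H2B (−0.88), 10 of 11 of H3 (−1.29) and 9 of 11 of H4 (−0.83). H3 had the lowest median in both lines. The summed H3 level went from 1593, 1970 and 2752 CPM in naive A549 to between 360.4 and 650.5 CPM under TGF-β1, a ratio of means of 4.24, and in H1944 from 580.9, 771.9 and 626.5 CPM to between 192.8 and 295.8 CPM, a ratio of 2.56. H1 went from 2405, 2788 and 2591 CPM to between 808 and 1188 CPM in A549 (ratio 2.57) and from 1126, 1394 and 1178 CPM to between 462.6 and 608.8 CPM in H1944 (ratio 2.19). The share of H3 in all histone counts stood at 17.8% ± 2.09 (SD, n = 3) in naive A549 and 13.4% ± 1.27 (n = 5) under TGF-β1, and at 16.5% ± 0.59 (n = 3) and 13.3% ± 0.85 (n = 6) in H1944. The share of H1 moved up in A549, to 27.5% ± 2.04 (n = 5), and in H1944 stood at 29.2% ± 1.38 (n = 6). No test was made of shares.

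H3C2, the H3 gene of highest level, stood at 672.6, 952.8 and 1425 CPM in naive A549 and at 183.2 and 251.6 (low gate) and 278.6, 155.8 and 310 CPM (high gate) under TGF-β1, a log2 fold change of −2.32 ± 0.32 (SE; adjusted p = 2.35e-05). In H1944 it stood at 163.9, 216.3 and 188.6 CPM in naive cells and at 75.45, 41.56 and 72.49 (low gate) and 69.76, 59.13 and 70.7 CPM (high gate) under TGF-β1, −1.46 ± 0.12 (adjusted p = 1.51e-12). The arms did not overlap in either line. The linker histone gene H1-2 stood at 834.7, 1002 and 863.7 CPM in naive A549 and at 311.7 to 441 CPM in the 5 TGF-β1 libraries (−1.43 ± 0.23). In H1944 it stood at 343.4, 413 and 354.1 CPM in naive cells and at 155.4 to 194.4 CPM in the 6 TGF-β1 libraries (−0.98 ± 0.09). Here too every treated library lay below every naive one. The other members of highest level fell in both lines, in A549 and H1944 respectively by log2 fold changes of −1.37 and −0.92 for H1-4, −1.49 and −0.59 for H2AC20, −1.84 and −0.44 for H2AC11, −1.82 and −1.01 for H2BC4, −1.80 and −0.58 for H2BC5, −2.28 and −0.93 for H3C3, −1.73 and −1.22 for H4C3, and −2.45 and −1.11 for H4C4.

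The largest falls in A549 were those of the H3 gene H3C7, the H2A gene H2AC16 and the H4 gene H4C1. H3C7 stood at 44.64, 50.18 and 77.3 CPM in naive cells and at 7.032, 11.7, 10.32, 8.867 and 12.25 CPM under TGF-β1 (−2.72 ± 0.26, adjusted p = 2.9e-07). H2AC16 stood at 32.9, 39.04 and 67.23 CPM in naive cells and at 5.32 to 10.03 CPM under TGF-β1 (−2.54 ± 0.29), and H4C1 at 39.13, 50.76 and 78.52 CPM and at 7.989 to 14.45 CPM (−2.52 ± 0.28). In all 3 genes the arms did not overlap. H2AC16 overlaps an exon of H2BC15 on the same strand in GENCODE 29, and 95.9% of its 50-base windows were unique. In H1944 the largest falls were those of H2BC14, from 15.97, 20.79 and 23.04 CPM to between 4.164 and 11.39 CPM (−1.56 ± 0.24, adjusted p = 7.78e-07), of H3C10 (−1.49 ± 0.18) and of H3C2.

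A few members moved little. The smallest falls among those past the test in A549 were in H4C16, the lone member on chromosome 12, from 58.11, 57.41 and 57.32 CPM to between 20.39 and 32.67 CPM (−1.19 ± 0.23, adjusted p = 0.000781), in H4C5 (−1.26 ± 0.26) and in H2BC21 (−1.32 ± 0.24). H3C6 (−0.93, adjusted p = 0.183) and H3C8 (−1.20, adjusted p = 0.478) did not pass. In H1944 the smallest falls were in H2AC11 (−0.44 ± 0.15, adjusted p = 0.00969), H2BC11 (−0.46 ± 0.19) and H4C13 (−0.50 ± 0.19). The 7 that did not pass there were H2BC26 (−0.65), H2BC21 (−0.39), H2AC15 (−0.36), H4C16 (−0.34), H2AC25 (−0.31), H3C6 (−0.21) and H4C5 (0.25 ± 0.14), with adjusted p from 0.0641 to 0.641, and those of them outside the naming rule are listed so that the count is complete. H4C5 stood at 37.41, 33.69 and 34.41 CPM in naive H1944 and at 43.07, 30.12 and 40.75 (low gate) and 32.62, 37.89 and 49.88 CPM (high gate) under TGF-β1, so its arms overlapped. In A549 the same gene stood at 92.17, 138 and 163.3 CPM in naive cells and 46.6 to 78.74 CPM under TGF-β1, with no overlap.

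Some of these members share a feature of their gene models. The length past the stem-loop was read from 1 GENCODE 29 transcript model per site, also where a gene has several models. In 19 members the model read this way runs at least 200 bases past the stem-loop, a limit set after values were seen. H4C5 (1022 bases past it), H2BC21 (1729), H2AC11 (1761), H2BC26, H2AC25 and H3C8 are among them. So is H3C10 (769), which had 1 of the largest falls in H1944. H2BC11, H4C13 and H2AC15, also listed above, are not. H4C16 (169 bases past it in the model read) and H3C6 (5) were not counted either. Other models of these 2 genes run further, and all their models together hold 2578 and 2679 exonic bases. Of the 19, 9 of 13 tested in H1944 fell (median −0.68), beside 41 of 44 of the other members (−1.03). In A549 the counts were 11 of 12 (−1.84) and 38 of 39 (−1.99). By place, 46 of 49 members on chromosome 6 fell in H1944 (−1.04) and 4 of 8 on chromosomes 1 and 12 (−0.62). In A549 these were 41 of 43 (−2.01) and 8 of 8 (−1.77). The difference between these subsets was not tested. The split by length past the stem-loop would change if every model of a gene were read.

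Falls in A549 and H1944 went with transcript length in other genes too. Under TGF-β1 the median log2 fold change of coding genes outside the family rose with exonic length in both lines, from −0.48 in 116 genes under 1 kb to 0.15 in 3347 genes of at least 8 kb in A549, and from −0.58 in 80 genes to 0.24 in 2956 genes in H1944. Of the 68 members 47 have models under 1 kb, and their median length is 512.5 bases. With a smooth of length taken out of each library, an alternative chosen after the data were seen, 48 of 51 members fell in A549 (median −1.35) and 34 of 57 in H1944 (−0.44), where H4C5 then rose (0.61, adjusted p = 0.000171). With this smooth H2AC20, H2BC11 and H4C13 no longer fell in H1944 (0.05, 0.01 and 0.15). By type, 5 of H1, 6 of H2A, 8 of H2B, 10 of H3 and 5 of H4 then fell in H1944. The share of all genes that fell with the smooth is not given beside these counts. What the relation with length comes from was not tested.

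The falls went along with genes of DNA synthesis and mitosis. Of 40 genes of DNA synthesis, 30 fell and 1 rose in A549 (median −0.81), and 31 fell and 4 rose in H1944 (−0.80). PCNA, the sliding clamp of DNA polymerases, fell in both (−1.30 in A549, −0.62 in H1944), and the smallest adjusted p were those of E2F2 (−2.88), TK1 (−1.96) and POLE2 (−1.58) in A549 and of MCM2 (−1.43), MCM6 (−1.34) and MCM4 (−1.12), subunits of the replicative helicase, in H1944. Of 30 mitosis genes, 30 fell in A549 (−1.23), while in H1944 15 fell and 2 rose (−0.25). MKI67, a marker of cycling cells, fell in A549 (−1.34 ± 0.22) and stood at −0.08 ± 0.08 in H1944 (adjusted p = 0.422). CDKN1A, which encodes the cyclin-dependent kinase inhibitor p21, rose in A549 (4.10) and in H1944 (2.39). These lists were chosen with earlier results of these data known, and their counts stand beside the backgrounds given above.

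SLBP, which binds the stem-loop, fell by 0.67 on the log2 scale in A549 (SE 0.21, adjusted p = 0.0345) and by 0.35 in H1944 (SE 0.10, adjusted p = 0.00306). NPAT was at −0.09 and −0.10 and passed in neither line. Of 17 genes of histone message production and processing, 2 fell in A549 (the other was CSTF2, a cleavage factor, −0.77), a share near the 11.4% of all genes. In H1944 6 of the 17 fell and 2 rose, where 31.6% of all genes fell and 32.1% rose. Among 21 histone chaperones, 6 fell in A549, with ASF1B (−1.44), HJURP (−1.48), the chaperone of centromeric CENPA, and CHAF1B (−0.97). In H1944 6 of the 21 fell and 6 rose, both near those shares of all genes. EZH2 fell in A549 (−0.83, adjusted p = 0.00827) and was at −0.20 in H1944, where it did not pass (adjusted p = 0.0811).

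Histone genes outside the replication-dependent clusters, most of which encode variants, were called in both directions. Over all genes 11.4% fell and 7.67% rose in A549, and 31.6% fell and 32.1% rose in H1944. Of 11 tested, 5 fell in each line, with CENPA (−1.51), H2AX (−1.17) and H2AJ (−1.54) among them in A549, and H1-10 (−0.67) and H2AJ (−0.94) among them in H1944. MACROH2A2 was the 1 that rose in A549. In H1944 4 rose, among them H3-3B (0.81), a gene of the replacement histone H3.3. The rise in A549 and the rises in H1944 were near the shares of all genes.

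TGF-β1 and GSK126 cells were also compared directly. In A549, 49 of 51 members were lower under TGF-β1 (median −1.44), beside 11.4% of all genes lower and 7.93% higher. In H1944, 51 of 57 were lower (−0.97), beside 32.1% lower and 31.6% higher. No member was called higher in either line. The lowest were H2AC16 (−2.40), H4C1 (−1.94) and H4C9 (−1.91) in A549 and H3C10 (−1.53), H3C2 (−1.52) and H4C1 (−1.51) in H1944. The smallest falls were H4C16 (−0.65), H2BC21 (−0.73) and H4C5 (−0.83) in A549, and H2AC6 (−0.39), H2BC8 (−0.50) and H4C16 (−0.51) in H1944. These comparisons use the same TGF-β1 libraries as those with naive cells.

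GSK126 moved few members past the test. In A549, 2 of 51 fell and 0 rose, where 3.2% of all genes fell and 3.57% rose. All 51 values were below 0, with a median of −0.56 beside −0.16 over all genes, and 27 had an unadjusted p under 0.05. Neither count was made over all genes, so the 51 and the 27 are descriptions. H3C7 stood at 22.58, 24.34 and 29.36 CPM in the low gate and 37.03 and 32.22 CPM in the high gate, beside 44.64, 50.18 and 77.3 CPM in naive cells (−1.06 ± 0.25, adjusted p = 0.0137). The H2B gene H2BC10 stood at 120.8, 121.2 and 94.13 CPM in the low gate and 150.8 and 126.9 CPM in the high gate, beside 184.9, 204.2 and 227.6 CPM in naive cells (−0.81 ± 0.23, adjusted p = 0.0373). Neither gene's arms overlapped. The members of highest level did not pass, from H1-4 (−0.18 ± 0.25, adjusted p = 0.758) and H1-2 (−0.26) through H2AC20 (−0.44), H2AC11 (−0.50), H2BC4 (−0.56), H2BC5 (−0.69) and H4C3 (−0.76) to H3C3 (−0.84), H3C2 (−0.90 ± 0.31, adjusted p = 0.111) and H4C4 (−0.98).

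This count in A549 depends on single libraries and on the tool. Without naive library A it was 27, without naive C or high gate library B it was 0, and without naive B or any 1 low gate library it was 1. DESeq2 called 17, limma-voom with sample weights 45, and every one of these was lower. The share of all genes called by each tool, or with a library left out, is not given here. These counts therefore show only how the number of members called moves. Naive library A was rich in reads of olfactory receptor genes, which are silent in such cells and served as a measure of background (202 CPM over 381 genes, beside 20.0 and 45.7 CPM in naive B and C). With the length smooth 0 members were called and the median was −0.19. In the same comparison 116 other coding genes under 1 kb had a median of −0.59.

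Among the lists in A549 under GSK126, 0 of 30 mitosis genes, 1 of 40 genes of DNA synthesis (UHRF1, an epigenetic regulator, up by 1.02) and 0 of 17 histone message factors passed the test. PCNA (−0.69, adjusted p = 0.138), MKI67 (0.32), SLBP (0.01) and NPAT (−0.02) did not pass. CDKN1A rose (2.31), as did MACROH2A2 (0.81).

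In H1944, GSK126 left the family's middle near naive cells. Of 57 members 1 rose and 2 fell, where 21.5% of all genes rose and 18.7% fell, and the median was −0.05 beside 0.00. H2AC11 rose (0.36 ± 0.14, adjusted p = 0.0354), and its arms overlapped, at 35.16 to 43.72 CPM in naive cells and 39.24 to 71.65 CPM in the 6 treated libraries. H4C13 fell, from 20.63 to 26.06 CPM in naive cells to 12.44 to 19.78 CPM (−0.54 ± 0.18, adjusted p = 0.0155), and H4C3 fell (−0.34 ± 0.14, adjusted p = 0.046) with arms that overlapped. The other members of highest level lay between −0.28 (H4C4) and 0.18 (H3C3) and did not pass, and the 57 values ran from −0.54 to 0.40. Without low gate library B or naive library B the count was 1, and the share of all genes in those fits is not given here.

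Against naive cells the low gate alone gave 10 of 57 members lower and 0 higher, where 14.6% of all genes were lower and 17.6% higher. The high gate alone gave 13 higher and 1 lower, where 21.5% were higher and 17.6% lower, so the larger count in each gate was near the share over all genes. The count over both gates depended on length. With the length smooth 20 members were higher and 0 lower (median 0.25), 9 of them H2A genes and 3 each H1, H2B and H3, with H3C3 (0.50) and H1-2 (0.28) among them, and H4C3 (−0.04) and H4C13 (−0.18) no longer passed. No share of all genes under this smooth is set beside the 20. Without the smooth, 21.5% of all genes rose and 18.7% fell over both gates. Genes of DNA synthesis rose in 16 of 40 with 0 falling (median 0.22), with TK1 (0.93), RRM2 (0.70), UHRF1 (0.83) and PCNA (0.25) among them. Mitosis genes rose in 8 of 30 and fell in 4, both near those shares of all genes, with MKI67 (0.43) and PLK1 (0.59) up and NUSAP1 (−0.62) down. Of 11 histone variants 6 rose, among them MACROH2A2 (1.84), H1-10 (0.57) and H2AX (0.55).

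The GSK126 gates of H1944 differed across the family. In cells of the high mVenus gate 25 of 57 members were higher than in the low gate and 0 were lower, where 3.62% of all genes were higher and 3.31% lower. The members' median was 0.49 beside 0.03 over all genes, 56 of 57 values were above 0, and 47 had an unadjusted p under 0.05. In 29 members every high gate library lay above every low gate library. Neither that separation nor an unadjusted p under 0.05 was counted over all genes, so the 29 and the 47 are descriptions. By type the count was 4 of 5 for H1 (median 0.45), 8 of 14 for H2A (0.61), 6 of 16 for H2B (0.50), 4 of 11 for H3 (0.45) and 3 of 11 for H4 (0.50).

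H2AC20, an H2A gene of chromosome 1, stood at 163.3, 177.6 and 201.1 CPM in the low gate and 288.6, 228 and 312 CPM in the high gate (0.62 ± 0.11, adjusted p = 0.000741). H1-2 stood at 335.6, 347.8 and 385.8 CPM and at 493.6, 435.4 and 529.1 CPM (0.45 ± 0.10, adjusted p = 0.00399). H3C2 stood at 164.6, 182.8 and 198.5 CPM and at 268.1, 208.7 and 281.1 CPM (0.48 ± 0.13, adjusted p = 0.0237). In all 3 the gates did not overlap, and high gate library B was the lowest of its gate. The largest differences were in H4C16, from 11.48, 11.87 and 9.206 CPM to 21.98, 15.55 and 23.11 CPM (0.90 ± 0.22, adjusted p = 0.0108), in H2AC7 (0.80 ± 0.18) and in H2BC13 (0.75 ± 0.18). The smallest among those past the test were H1-4, H3C3 and H1-1 (all 0.45). Of the other members of highest level H2BC5 (0.63), H4C4 (0.59) and H2BC4 (0.52) passed, and H4C3 (0.50, adjusted p = 0.0625) and H2AC11 (0.35, adjusted p = 0.161) did not.

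Single libraries weigh on this count. Without low gate library B it was 8, without high gate library A 9, and without high gate library B 38, and in each case 0 were lower. Shares of all genes with a library left out are not given here. In 1 fit of all 28 libraries, where A549's wider spread is shared, it was 0. With the length smooth it was 16 (median 0.31), since shorter coding genes were also higher in the high gate, with medians from 0.12 in 80 genes under 1 kb to −0.03 in 2956 genes of at least 8 kb. Background reads overlapped between these gates (5.74, 33.6 and 8.92 CPM in the low gate, 7.47, 15.5 and 75.1 CPM in the high gate).

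Other genes of the cell cycle passed in both directions between these gates. Of 40 genes of DNA synthesis 1 was higher and 2 were lower (median −0.05), and of 30 mitosis genes 2 were higher and 2 lower (0.08). PCNA (−0.07 ± 0.10), MKI67 (0.04 ± 0.09), SLBP (0.01 ± 0.11) and NPAT (−0.13 ± 0.18) did not pass. Of 17 message factors 2 were lower, and these, chosen after their values were seen, were CASP8AP2 (−0.58 ± 0.13, adjusted p = 0.00439), the gene of FLASH, and TUT7 (−0.52 ± 0.13), a uridylyltransferase. Of 21 chaperones 4 were lower (ATRX, NAP1L1, NASP and SUPT16H, from −0.54 to −0.35). Of 11 variants 1 was higher, H2AX (0.56 ± 0.11, adjusted p = 0.00096), whose message can end in the same stem-loop. CDKN1A was higher too (0.67 ± 0.11). The genes named here beside PCNA, MKI67, SLBP and NPAT all lie outside the naming rule.

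**Figure D2:**
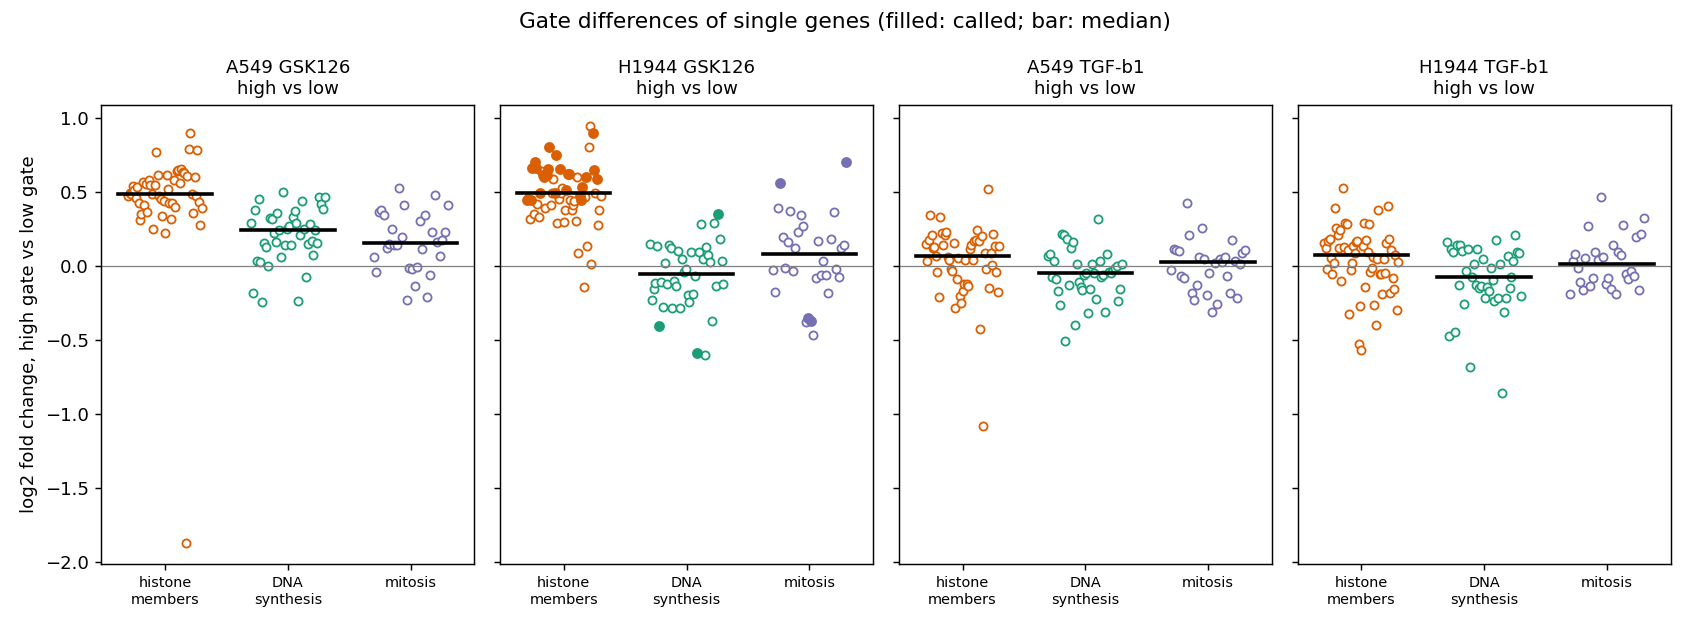
Log2 fold change of the high over the low mVenus gate (y axis, log2 scale) in the 4 pairs of gates, for histone members, DNA synthesis genes and mitosis genes; each point is a gene, filled where it passed the test, and each bar is a median. In the H1944 GSK126 gates the members' median is 0.49, with 25 filled points, while that of DNA synthesis genes is −0.05.

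In the other gates no member passed. Between the A549 GSK126 gates edgeR called 0 of 51 members, and 0% of all genes higher and 0% lower. The members' median was 0.49 beside −0.05, 50 of 51 values were above 0, 3 had an unadjusted p under 0.05, and the smallest adjusted p was 0.74. DESeq2 and limma-voom called 0 as well. In 19 members both high gate libraries lay above all 3 low gate libraries, among them H1-2 with 839.9 and 927 CPM beside 671.7, 704.8 and 796.7 CPM. This separation was not counted over all genes. By edgeR mVenus, on which the cells were sorted, did not pass here (1.02, adjusted p = 0.74). The lack of calls therefore does not show that members were alike. Background reads moved with these gates, at 96.0, 80.0 and 87.2 CPM in the low gate and 43.9 and 6.27 CPM in the high gate. With background as a covariate the members' median was 0.20. Of the 25 members higher in the H1944 GSK126 gates, 21 were tested here and 20 had values above 0 (median 0.54).

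Between the TGF-β1 gates no member passed either. In A549 edgeR called 0 of 51 (0% of all genes higher, 0% lower), with values from −1.08 to 0.52, a median of 0.07, 0 at an unadjusted p under 0.05, 0 by DESeq2 and 1 by limma-voom. There mVenus, on which the cells were sorted, did not pass either (1.25), so the lack of calls does not show that members were alike. In H1944 it called 0 of 57, where 0.0147% of all genes were higher and 0.044% lower, with a median of 0.07, 4 at an unadjusted p under 0.05, and 0 by both other tools. H1-2 stood at 190.3, 155.4 and 168.9 CPM in the low and 191.2, 171.1 and 194.4 CPM in the high gate of H1944 (0.12 ± 0.11), and the gates overlapped.

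The differences between gate effects were tested too, as comparisons added after the data were seen. In H1944 the gate effect under GSK126 was larger than that under TGF-β1 in 54 of 57 members (median 0.46). edgeR called 0 of them, where 0.338% of all genes were called higher and 0.0661% lower. At an unadjusted p under 0.05 there were 17, the smallest adjusted p was 0.122, and DESeq2 called 0 and limma-voom 2, and edgeR called 1 without low gate library A of GSK126. So 25 calls under GSK126 and 0 under TGF-β1 did not amount to a tested difference between the treatments. The gate effect under GSK126 did not differ between the lines past the test in any of 59 members by edgeR, DESeq2 or limma-voom (median −0.04, 1 at an unadjusted p under 0.05), where 0.0112% of all genes were called higher and 0% lower.

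The fall under TGF-β1 was deeper in A549. Over the 49 members tested in both lines, 41 fell in both, 6 in A549 alone and 1 in H1944 alone, and the A549 value was the lower one in 48. Medians were −1.97 in A549 and −0.98 in H1944. The values of the lines correlated at Pearson's r 0.55 and Spearman's rho 0.50 across these members, which are not independent of each other. In a fit of both lines the effect differed past the test in 21 of 59 members, 20 of them less negative in H1944 (median 0.76), where 10.5% of all genes were called higher and 9.48% lower.

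By type these were 9 of 14 of H2A, 5 of 12 of H4, 4 of 17 of H2B, 2 of 11 of H3 and 0 of 5 of H1, whose median difference was 0.29. The difference was largest in H2AC16 (1.41 ± 0.30, adjusted p = 0.000817), H2AC25 (1.36 ± 0.31) and H4C13 (1.36 ± 0.32). H4C13 stood at 91.3, 101.5 and 113.4 CPM in naive A549 and 21.97 to 34.94 CPM under TGF-β1, beside 26.06, 22.46 and 20.63 CPM and 7.831 to 19.25 CPM in H1944. H2AC11 (1.21 ± 0.27), H4C4 (1.18 ± 0.36), H3C3 (1.17 ± 0.27) and H2BC5 (1.03 ± 0.29) also differed, and the smallest past the test were H2AC14 (0.82) and H2AC20 (0.73). H1-2 (0.29 ± 0.22), H1-4 (0.29), H4C3 (0.34), H2BC4 (0.64) and H3C2 (0.68 ± 0.34, adjusted p = 0.171) did not pass. The lone call the other way, H2BC8 (−2.87 ± 1.04, adjusted p = 0.0497), rests on 1 count in naive A549 and 11 counts under TGF-β1. Without A549 naive library A the number past the test was 36, and without naive library C it was 14. The share of all genes called in these 2 fits is not given here, so they show only how the number of members moves. Mitosis genes differed in the same direction in 17 of 30 (median 0.75) with MKI67 at 1.09 ± 0.20, and DNA synthesis genes in 5 each way of 40 (−0.15).

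**Figure D3:**
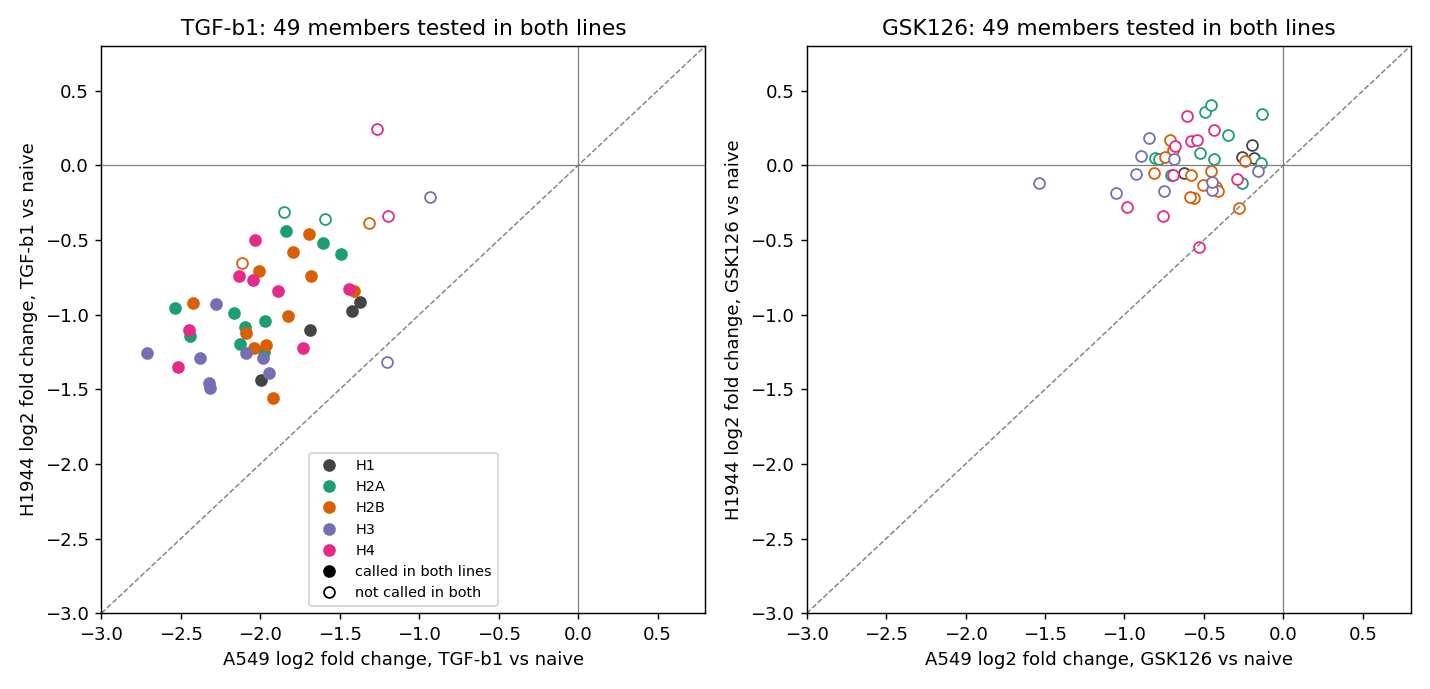
Log2 fold change against naive cells in A549 (x axis) and H1944 (y axis) for the 49 members tested in both lines, under TGF-β1 and under GSK126; filled points passed the test in both lines, and the dashed line marks equal values. Under TGF-β1, 48 of 49 points lie on the side of a deeper fall in A549, and under GSK126 47 do, with 0 filled.

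Under GSK126 the lines differed past the test in 1 of 59 members, H3C3 (0.98 ± 0.26, adjusted p = 0.0128), where 6.18% of all genes were called higher in H1944 and 3.73% lower. H3C3 stood at 357.8, 399.8 and 555 CPM in naive A549 and 191.3 to 377.6 CPM under GSK126, and at 127.8, 158 and 129.1 CPM and 133.6 to 225.9 CPM in H1944. The members' median difference was 0.53, with 54 of 59 above 0 and 23 at an unadjusted p under 0.05. Neither was counted over all genes, so the 54 and the 23 are descriptions. Without A549 naive library A the count was 14 and without naive library C 0, and without 1 other library at a time it ran up to 7, without A549 high gate library A. It was 3 without low gate A, 2 without high gate B and 4 without low gate C of A549, 2 without low gate A or C, 4 without high gate B and 2 without naive B of H1944. Shares of all genes in these fits are not given here, so the counts show only how the number of members moves. Of 40 DNA synthesis genes 2 differed in the same direction (median 0.15), PCNA (0.90 ± 0.25) among them, and of 30 mitosis genes 1 did, shares below the 6.18% of all genes.

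Naive cells of the lines differed in nearly every member. Of 59 tested, 47 were lower and 10 higher in H1944, where 22.9% of all genes were lower and 23.9% higher, and the members' median was −1.65 beside −0.10. H3C6 and H3C11 did not pass. Among members of highest level the log2 difference was −2.41 ± 0.28 for H3C2, −1.26 ± 0.18 for H1-2, −1.08 for H1-4, −1.37 for H2AC20, −1.92 for H2BC4, −2.01 for H2BC5, −1.64 for H3C3, −2.13 for H4C3 and −2.80 for H4C4. H2AC11 (−3.37 ± 0.22) stood at 332, 398 and 515.5 CPM in A549 and 43.72, 41.17 and 35.16 CPM in H1944. H2AC16 was higher in H1944, at 71.88, 96.49 and 78.99 CPM beside 32.9, 39.04 and 67.23 CPM (0.85 ± 0.23, adjusted p = 0.00256). Genes of DNA synthesis were lower in H1944 in 20 of 40 and higher in 3, and mitosis genes lower in 22 of 30 and higher in 0.

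The other 9 of the 10 members higher in H1944 were close to silent in A549. A cut chosen after values were seen, a mean under 3 CPM in 1 line and at least 10 CPM in the other, took these 9 (H1-1, H2AC7, H2AC8, H2BC7, H2BC8, H2BC9, H3C4, H3C8 and H4C6) and, the other way, H2BC6 and H4C9. H3C8, at 1.28 CPM, was the member just inside and H2AC25, at 20.6 CPM, the next outside on the A549 side. On the H1944 side these were H2BC6 at 0.24 CPM and H2BC26 at 4.49 CPM. The gap was wide on the A549 side. Since the cut used these levels, they are a description.

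H2AC8 stood at 109.7, 159.3 and 107.3 CPM in naive H1944 and at no more than 1.99 CPM in any of the 13 A549 libraries, where 30 counts were seen in all. The ratio of summed levels of H1944 to A549 was 244 (95% exact interval 171 to 362, for counting error only). H2BC9 stood at 38.67, 39.09 and 38.4 CPM in naive H1944 and had 9 counts in A549 (ratio 241, 127 to 529). The others had 7 to 92 counts in A549, and their ratios ran from 33.0 (26.8 to 41.1) for H3C8 and 46.4 (34.8 to 63.4) for H2BC7 through 84.2 for H2AC7, 162 for H1-1, 167 for H2BC8 and 168 for H4C6 to 236 (138 to 443) for H3C4. H3C4 and H2AC7 share exon sequence on the same strand with another annotated gene. In A549 the mean level per olfactory receptor gene, a gauge of background, ran from 0.0165 to 0.822 CPM, so levels under 1 CPM are at the size of background.

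The reverse pattern was found in an H4 gene and an H2B gene. H4C9 stood at 53.19, 69.27 and 80.65 CPM in naive A549 and at no more than 0.863 CPM in any of the 15 H1944 libraries, where 8 counts were seen (ratio of A549 to H1944 252, 95% exact interval 128 to 584). H2BC6 had 11 counts in H1944 (ratio 135, 75.4 to 271). H4C9 took part in the TGF-β1 response of A549, with 12.5 and 13.42 CPM in the low gate and 11.98, 10.42 and 18.53 CPM in the high gate.

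Treatment left the silent genes low. Under GSK126 the highest of the 9 in A549 was H3C8 at 0.919 CPM (95% exact interval 0.502 to 1.54, from 14 counts), beside 2.16 CPM (1.57 to 2.90, from 44 counts) in naive cells. H2AC8 stood at 0.591 CPM (0.270 to 1.12) under GSK126 and at 0.442 CPM (0.202 to 0.839) in naive A549. H4C6 had 0 counts under GSK126, for which the 95% exact upper limit is 0.242 CPM. In H1944 the same genes responded with the rest of the family, and H2AC8 fell from the naive levels above to between 53.01 and 81.31 CPM under TGF-β1, and stood at 106.2, 118.7 and 116.2 CPM in the low and 179.6, 133 and 136.2 CPM in the high GSK126 gate.

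The 9 genes are interleaved with active ones. They lie between bases 26017085 and 26271815 of chromosome 6, in a stretch that holds 29 histone genes. Among neighbours that were active in both lines, H4C5 had means of 94.3 CPM in A549 and 40.4 CPM in H1944, H1-3 of 262.5 and 93.0 CPM, and H3C7 of 28.3 and 23.4 CPM. Leaving out H3C4, whose RefSeq window is that of H2AC7, the promoters of the other 8 held CCAAT and TATAA, and 5 held the octamer. These letters also occur in promoters of active members, as in the H2BC10 sequence above. Gene copy number was not measured in these files.

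**Figure D4:**
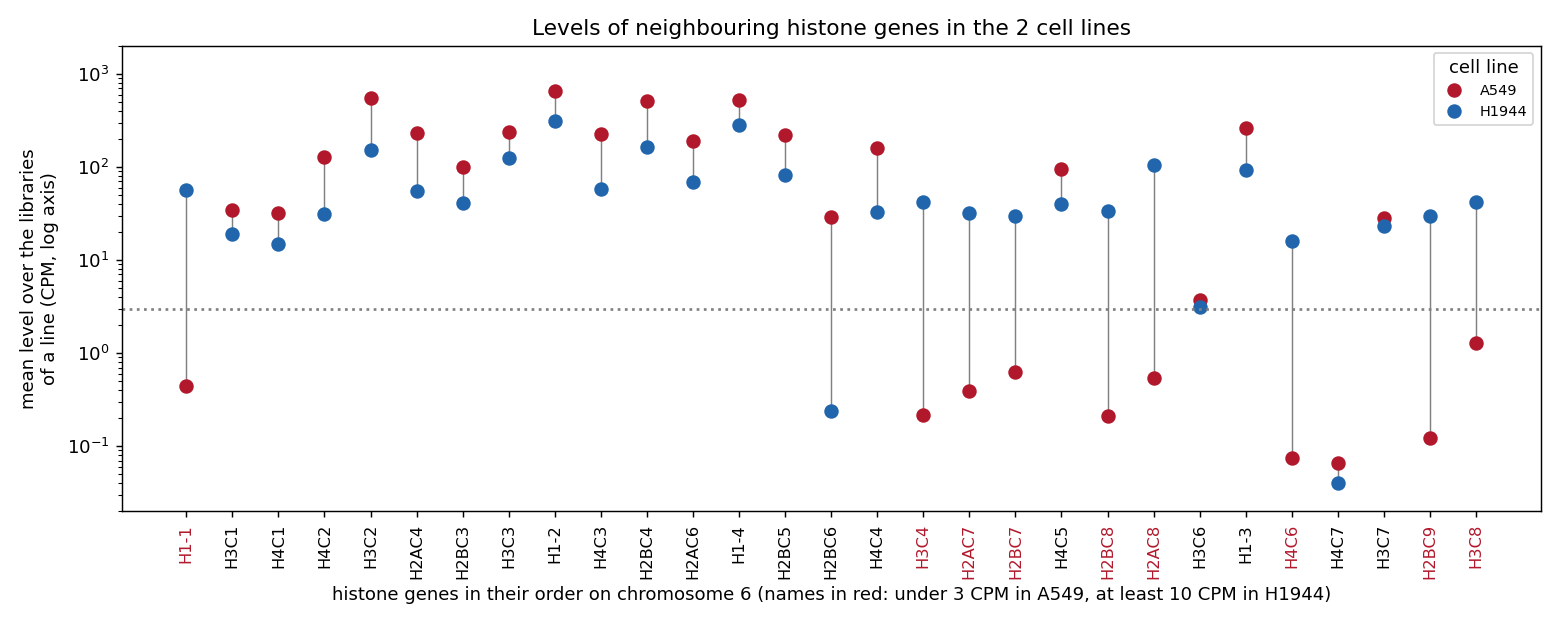
Mean CPM (y axis, log scale) of the 29 histone genes of the stretch, in their order along chromosome 6 (x axis, not to distance), in A549 (red) and H1944 (blue); the dotted line is at 3 CPM and red names are the 9 genes low in A549. The 9 fall below the line in A549 alone; their neighbours are above it in both lines, except H4C7 (below in both) and H2BC6 (below in H1944).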

How the data were processed

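RNA was sequenced from 28 libraries made from 10 ng of RNA with a SMARTer Pico v2 kit for stranded total RNA, per the labels' protocols. The deposited table holds raw whole-number counts per gene and library that the authors made with bcl2fastq 2.20.0, STAR 2.6.0c on GRCh38 and HTSeq 0.12.3, per the submitters' processing notes. The annotation release, the strand setting and any trimming or removal of duplicates are not given in the sources used here. Without molecular identifiers PCR copies count as reads, so intervals cover counting error only.

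Levels are CPM from library totals. Genes were tested in R 4.3.3 with edgeR 4.0.16 (TMM, its low-count filter, quasi-likelihood F tests, Benjamini-Hochberg adjustment over all genes, threshold 0.05). Each line was fitted alone with its 5 groups, and differences between lines in a joint fit. The spread of a gene's level between libraries of a group (edgeR's common BCV, 1 value for all genes) was 0.358 for A549, 0.0978 for H1944 and 0.216 jointly. Residual degrees of freedom were 8, 10 and 18. The scripts were tested on simulated counts. GENCODE 29 gave coordinates and lengths. Alternatives were RLE factors, other filters, DESeq2 1.42.0, limma-voom (limma 3.58.1), a replicate block, background as a covariate, other sets of libraries, single gates, each library left out, and, added after the data were seen, a smooth of transcript length and 2 differences of gate effects. The members and lists were chosen with earlier results of these data known. Counts at an unadjusted p, and counts of members without overlap, were made for members alone and are descriptions.

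Named members are the 2 of highest mean CPM per type, the 3 highest and 3 lowest log2 fold changes past the test at a mean of at least 2 CPM in each comparison, and members called against the majority. Named list genes are the 3 of smallest adjusted p in comparisons with naive cells, and MKI67, PCNA, SLBP, NPAT and EZH2. Another gene that the rule names is not reported here.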

Additional observations from a re-analysis of the deposited data

Results flagged for a closer look

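The response to TGF-β1 differed between A549 and H1944, by the test of the difference itself, in 21 members. Among those named by rule the differences of log2 fold changes (H1944 minus A549) were 1.41 for H2AC16, 1.36 for H2AC25, 1.36 for H4C13, 0.82 for H2AC14 and 0.73 for H2AC20, and −2.87 for H2BC8, which rests on 1 count in the naive and 11 in the TGF-β1 libraries of A549. The response to GSK126 differed in 1 member, H3C3, by 0.98. Both counts move with single libraries. Without A549 naive library A they were 36 and 14, and without naive library C 14 and 0, given without the share of all genes. Library A holds more background reads than the other naive libraries, and the part of background in these shifts was not tested.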

How the results depend on the processing

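Of the counts of members called, 131 of 163 recomputed under other settings stayed within 1.5 times of the reported count, and 117 of 141 with a library left out. These tallies include comparisons with 0 reported calls, where 0 under another setting counted as unchanged, so they overstate how stable the other counts are. No letter-based pairing was assumed, since same-letter libraries deviated together at correlations from −0.131 to 0.202 in H1944 and −0.753 to 0.399 in A549; a replicate block gave 49 lower in A549 and 48 in H1944 under TGF-β1, 26 between the H1944 GSK126 gates and 1 for GSK126 in A549. For GSK126 in A549 (2 reported) the counts were 8 with RLE size factors, 1 with at least 1 CPM in 2 libraries, 17 with DESeq2, 45 with limma-voom, 26 with background as covariate, 0 with the length smooth, 18 with only the groups compared, 37 without the 2 background-rich libraries (naive A and TGF-β1 high B), 7 and 0 for the low and high gate alone and 27 in 1 fit of all libraries, and 0 to 27 with a library left out. For GSK126 in H1944 (3) they were 1 with DESeq2, 6 with limma-voom, 20 with the length smooth, 10 and 14 for the low and high gate alone, 0 in 1 fit, and 1 to 3 with a library left out. Between the H1944 GSK126 gates (25) they were 16 with the length smooth, 0 in 1 fit and 8 to 38 with a library left out. The difference of H1944 gate effects (0) gave 2 with limma-voom and 0 to 1, and the A549 TGF-β1 gates (0) gave 1 with limma-voom. The difference in GSK126 effect (1) gave 6 with RLE, 12 with no filter, 8 with DESeq2, 27 with limma-voom, 19 with background as covariate, 10 with only the groups compared, 23 without the background-rich libraries, and 0 to 14. The difference in TGF-β1 effect (21) gave 43 with limma-voom, 35 with background as covariate, 37 without those libraries, and 14 to 36. With the length smooth the H1944 TGF-β1 values of H2BC11 (0.011), H2AC20 (0.045) and H4C13 (0.15) turned sign. The cause of these shifts was not tested. Left-out libraries gave 49 in every case for TGF-β1 in A549 and 47 to 50 in H1944. All counts in this section are given without the share of all genes called under the same setting.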
